A study of Mus musculus with 8 samples.

Results

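DNA replication and mitosis genes were followed through the epidermis of *Troy*-EGFP-IRES-CreERT2 mice. The set held 44 genes of the 19591 genes listed in the data, taken by symbol from a list of genes known to be used in S phase or in mitosis. Of these, 15 serve DNA replication (*Mcm2*, *Mcm3*, *Mcm4*, *Mcm5*, *Mcm6*, *Mcm7*, *Pcna*, *Tyms*, *Rrm1*, *Rrm2*, *Ung*, *Gins2*, *Uhrf1*, *Dtl* and *Ccne2*) and 29 serve mitosis (*Mki67*, *Top2a*, *Birc5*, *Cdk1*, *Ccnb2*, *Ccna2*, *Cenpa*, *Cenpe*, *Cenpf*, *Tpx2*, *Nusap1*, *Ube2c*, *Hmgb2*, *Tacc3*, *Bub1*, *Aurka*, *Aurkb*, *Kif11*, *Kif20b*, *Kif23*, *Cks2*, *Cdc20*, *Ttk*, *Hmmr*, *Anln*, *Dlgap5*, *Hjurp*, *Cdca3* and *Cdca8*). All 44 had reads both in the bulk libraries and in the single-cell plates. In these mice, on a C57BL/6 background, a cassette of EGFP and a tamoxifen-inducible Cre replaces the protein-coding part of *Troy* (*Tnfrsf19*), so EGFP and Cre follow the *Troy* promoter and every group carried at least 1 altered *Troy* allele. Skin was taken from adults with hair follicles in telogen, the resting phase of the hair cycle.

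For bulk sequencing, epidermal cells of 2 *Troy*-EGFP mice were sorted into viable cells, ITGA6bright EGFP+ cells and ITGA6bright EGFP- cells. ITGA6, integrin alpha 6, anchors basal layer cells to the basement membrane, and its bright stain marks them. For single-cell sequencing, 4 *Troy*-EGFP mice gave 1 plate each, sorted as ITGA6-, ITGA6bright EGFP- and ITGA6bright EGFP+ cells. A further pair of mice, males homozygous for both the *Troy* allele and a Rosa26-LSL-tdTomato reporter, received a single tamoxifen injection and were sampled after 7 days, with gates on ITGA6, *Troy*-EGFP and tdTomato (traced mice). The well of each gate was not used, so each plate was treated as 1 mouse with mixed gates.

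Before a cell divides it copies its DNA in S phase. The *Mcm2* to *Mcm7* proteins form the ring-shaped helicase that unwinds DNA, *Gins2* belongs to the complex that activates it, *Pcna* is the sliding clamp that holds the polymerases, and *Rrm1*, *Rrm2* and *Tyms* make the DNA building blocks. In mitosis the copied chromosomes are condensed and pulled apart: *Cdk1* with *Ccna2* and *Ccnb2* is the kinase that drives entry, *Top2a* untangles the DNA, the Cenp proteins build the kinetochore, *Tpx2*, *Tacc3*, *Aurka* and the Kif motors build and move the spindle, and *Birc5* and *Aurkb* sit in the complex that guards attachment. In the epidermis division takes place in the basal layer, whose cells make *Krt14*, while *Krt10* is made by cells that have committed to differentiate.

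The promoters show how the members of each set resemble each other in sequence, which the choice of genes did not use. Promoters of 37 of the 44 genes were found in RefSeq (GRCm38.p6), as 250 bases before to 50 bases after a start site. Searched on both strands were an E2F site (TTTCCCGC, TTTCGCGC, TTTGCCGC or TTTGGCGC), the CHR element (TTTGAA or TTCGAA) and the CCAAT box (CCAAT); E2F factors are known for S phase genes, and CHR elements and CCAAT boxes for genes of mitosis. An E2F site was found in 6 of 12 replication genes (50%) and in 1 of 25 mitosis genes (4%), beside 2.61% of the 27025 genes with a promoter. A CHR element was found in 2 of 12 replication genes (16.7%) and 20 of 25 mitosis genes (80%), beside 21.7% of all genes. A CCAAT box was found in 10 of 12 replication genes (83.3%), in 20 of 25 mitosis genes (80%) and in 41.1% of all genes, and a CHR element together with a CCAAT box in 18 of 25 mitosis genes (72%), in 2 of 12 replication genes and in 8.61% of all genes. These are matches of letters, and whether a factor binds there was not measured.

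A total of 5 promoters are printed, from 250 bases before to 30 bases after the start, in lower case with the matches to these motifs in capitals, read 5′ to 3′ along the gene. *Pcna* and *Mcm6* were the replication genes with the most transcripts in single cells, *Hmgb2* and *Hmmr* the mitosis genes with the most, and *Top2a* was added after its values were seen, as the member with the lowest adjusted p in bulk. *Pcna* (chr2:132253151-132253430, minus strand) held 1 CCAAT box and no E2F site in these letters. *Mcm6* (chr1:128359676-128359955, minus strand) held 3 E2F matches, of which the first and second overlap, and 2 CCAAT boxes. *Hmgb2* (chr8:57511593-57511872, plus strand) held 2 CHR elements and 4 CCAAT boxes, *Hmmr* (chr11:40733408-40733687, minus strand) 1 and 5, and *Top2a* (chr11:99024160-99024439, minus strand) 4 and 6.
Pcna: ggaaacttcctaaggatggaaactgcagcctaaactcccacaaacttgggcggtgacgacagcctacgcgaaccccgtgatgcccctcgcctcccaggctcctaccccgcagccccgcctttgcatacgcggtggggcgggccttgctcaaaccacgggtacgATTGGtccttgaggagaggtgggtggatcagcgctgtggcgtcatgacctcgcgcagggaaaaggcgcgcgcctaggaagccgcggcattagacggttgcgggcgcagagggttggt
Mcm6: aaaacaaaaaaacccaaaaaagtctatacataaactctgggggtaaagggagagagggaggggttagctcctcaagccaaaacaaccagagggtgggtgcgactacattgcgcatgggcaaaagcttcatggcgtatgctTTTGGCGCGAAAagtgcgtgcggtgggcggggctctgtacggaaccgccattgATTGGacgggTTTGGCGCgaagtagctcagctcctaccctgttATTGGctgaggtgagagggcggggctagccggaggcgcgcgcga
Hmgb2: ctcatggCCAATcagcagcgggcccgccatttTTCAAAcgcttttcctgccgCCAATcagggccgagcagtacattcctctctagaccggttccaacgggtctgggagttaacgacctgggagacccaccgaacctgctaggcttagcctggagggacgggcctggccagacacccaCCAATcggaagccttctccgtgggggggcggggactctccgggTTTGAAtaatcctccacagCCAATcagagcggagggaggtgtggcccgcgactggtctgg
Hmmr: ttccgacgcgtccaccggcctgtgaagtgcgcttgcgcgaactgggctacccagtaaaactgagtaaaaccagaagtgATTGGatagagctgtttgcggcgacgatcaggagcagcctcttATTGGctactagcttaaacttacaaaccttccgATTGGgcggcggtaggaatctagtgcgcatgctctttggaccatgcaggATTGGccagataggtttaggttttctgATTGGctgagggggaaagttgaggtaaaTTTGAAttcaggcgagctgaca
Top2a: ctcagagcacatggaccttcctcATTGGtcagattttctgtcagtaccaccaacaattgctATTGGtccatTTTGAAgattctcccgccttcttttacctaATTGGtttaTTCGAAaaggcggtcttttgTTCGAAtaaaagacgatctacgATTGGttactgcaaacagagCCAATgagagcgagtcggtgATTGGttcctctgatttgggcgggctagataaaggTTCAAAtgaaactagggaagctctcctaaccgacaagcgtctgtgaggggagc

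The bulk libraries held 157537 to 453005 counts, so members with few reads were close to counting error there. The plates gave 1109 cells with at least 1000 transcripts of 2304 wells, between 71 and 262 a mouse, of which 898 fell into epidermal clusters and 211 into removed ones (T cell-like, Langerhans cell-like and clusters led by *Mir1950* or *Lipi*). *Troy*-EGFP mouse 1 stood apart: 63.4% of its cells were in removed clusters and 26 were epidermal, so list levels are given by mouse, and counts of single genes pooled over the *Troy*-EGFP mice are also described without it. *Xist*, which marks female tissue, was found in *Troy*-EGFP mice 3 and 4 alone (122 and 112 transcripts). The labelled sort held, with *Tnfrsf19* at 102 and 67.4 CPM (counts relative to the library's total) in the EGFP+ libraries and at 19.0 and 31.9 in the EGFP- libraries. The CPM of members are normalised, with counts scaled by TMM to 1 library size.

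Between ITGA6bright EGFP+ and ITGA6bright EGFP- cells 4 mitosis genes, *Top2a*, *Tacc3*, *Birc5* and *Cdk1*, fell in the EGFP+ cells, and no replication gene passed the test; whether the lists differ from each other was not tested. By edgeR (quasi-likelihood F test, p-values adjusted after Benjamini and Hochberg over all genes), 328 of 4653 genes differed (7.05%; 4.06% were lower in EGFP+ cells). Of the 28 members with enough reads to be tested 4 were called lower and none higher. Of the 18 tested mitosis genes 17 were lower in EGFP+ cells, with a median log2 fold change of -1.05, beside a median of -0.04 over all tested genes. Of the 10 tested replication genes 0 were called, 7 were lower and the median was -0.44. The mitosis genes *Cdc20*, *Ube2c*, *Aurka*, *Dlgap5* and 7 others, and the replication genes *Mcm3*, *Mcm4*, *Ung*, *Gins2* and *Ccne2*, had too few reads to be tested.

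*Top2a*, the topoisomerase that separates the copied chromosomes, stood at 115 and 185 CPM in the EGFP+ libraries, at 408 and 443 in the EGFP- libraries and at 185 and 158 in viable cells. Both EGFP- libraries lay above the other 4, and the log2 fold change between EGFP+ and EGFP- cells was -1.54 ± 0.311 (SE, 2 mice, edgeR adjusted p = 0.0034). *Tacc3*, a spindle protein, stood at 29.5 and 54.1 CPM in EGFP+ cells and at 143 and 111 in EGFP- cells, a log2 fold change of -1.66 ± 0.428 (edgeR adjusted p = 0.0220). Viable cells, at 28.5 and 31.6, were at the level of EGFP+ cells for this gene.

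*Birc5*, which codes for survivin, was at 24.1 and 27.1 CPM in EGFP+ cells and at 136 and 70.0 in EGFP- cells (log2 fold change -1.96 ± 0.545, edgeR adjusted p = 0.0321). *Cdk1*, the mitotic kinase, was at 50.9 and 45.1 CPM against 113 and 134 (-1.35 ± 0.383, edgeR adjusted p = 0.0356). In all 4 called genes the EGFP+ and EGFP- libraries did not overlap, as for 16 of the 18 tested mitosis genes and 6 of the 10 tested replication genes. Libraries of 2 against 2 did not overlap for 48.1% of all tested genes.

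Of the other mitosis genes, *Ccnb2*, the partner of *Cdk1*, was at 50.9 and 31.6 CPM in EGFP+ cells and at 174 and 75.8 in EGFP- cells, which missed the threshold (log2 fold change -1.47, edgeR adjusted p = 0.0683). *Mki67*, the gene of the Ki-67 antigen, was at 75.0 and 54.1 CPM against 151 and 117 (-0.99 ± 0.367, edgeR adjusted p = 0.116). *Hmgb2*, a chromatin protein that cells also use outside mitosis, was at 158 and 194 CPM against 143 and 204, with a log2 fold change of -0.01. *Cenpe* was the 1 tested mitosis gene with a higher value in EGFP+ cells (log2 fold change 0.40). By DESeq2, or with only these 2 populations in the fit, 1 member was called, and without EGFP+ mouse 1 none was by edgeR (9 had an unadjusted p under 0.05). The populations of 1 mouse are a pair. Counting them so, 6 members were called in place of 4, beside 468 of all genes in place of 328. *Ccnb2* was among the 6 members (adjusted p = 0.0110 in edgeR with the replicate block).

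Among the replication genes, *Pcna* was at 169 and 171 CPM in EGFP+ cells, at 242 and 227 in EGFP- cells and at 157 and 187 in viable cells (log2 fold change -0.46 ± 0.306, edgeR adjusted p = 0.445). *Mcm7* was at 263 and 343 CPM against 430 and 373, and *Mcm2* at 53.6 and 94.7 against 98.1 and 134. Both helicase genes were lower without overlap but were not called. *Mcm5*, *Mcm6* and *Rrm1* had log2 fold changes of 0.11, 0.10 and 0.09, with overlapping libraries; *Mcm6* was at 91.1 and 99.2 CPM against 75.5 and 99.1. The nucleotide enzymes *Rrm2* (-1.07, edgeR adjusted p = 0.0953) and *Tyms* (-2.23, edgeR adjusted p = 0.101) had the replication genes' lowest adjusted p-values. Without EGFP- mouse 1, which leaves 1 EGFP- library, the log2 fold change of *Rrm2* was -1.44. The replication median went from -0.24 without EGFP+ mouse 1 to -0.63 without EGFP- mouse 1.

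**Figure D1:**
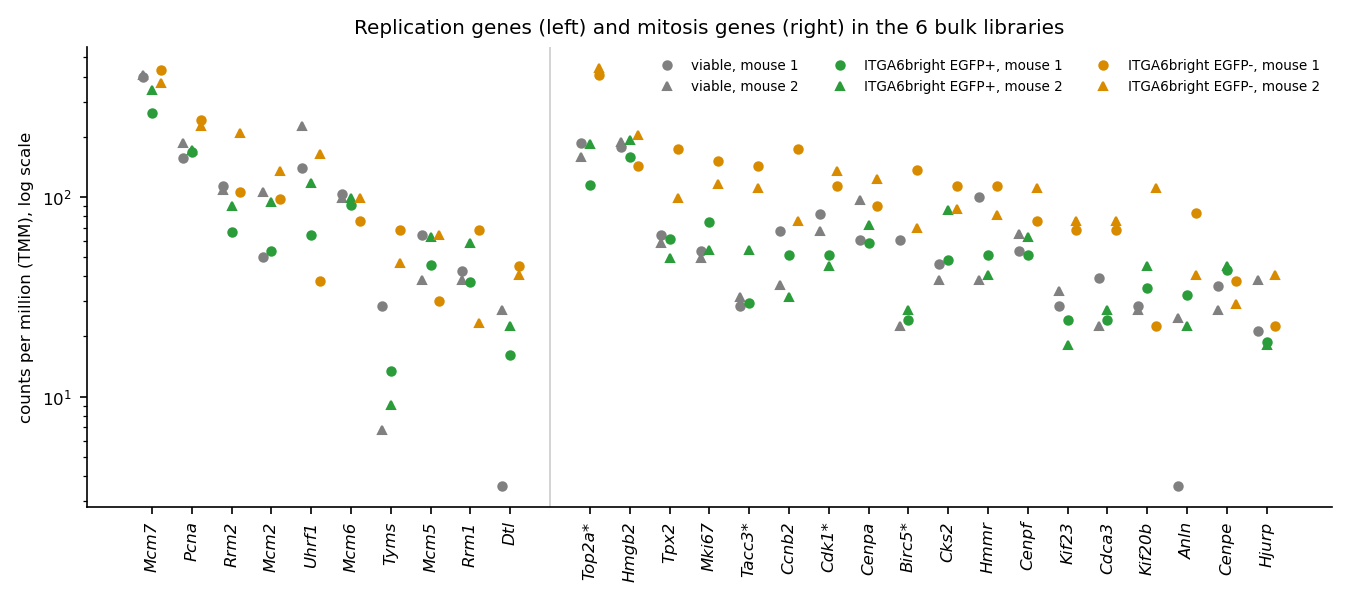
Normalised CPM (scaled by TMM, log axis) of the 28 tested replication and mitosis genes in the 6 bulk libraries, by population (colour) and mouse (shape), with an asterisk at genes called between ITGA6bright EGFP+ and EGFP- cells. The EGFP- points of *Top2a* (408 and 443) lie above those of the EGFP+ (115 and 185) and viable (185 and 158) libraries, while those of *Hmgb2* and *Mcm6* overlap.

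Viable cells, which hold all sorted layers, served as the reference for both populations, and all 3 comparisons share libraries. Between EGFP- and viable cells 1.78% of the tested genes were called (0.924% as higher in EGFP- cells), and 2 members were, both mitosis genes that rose: *Tacc3* (log2 fold change 2.04 ± 0.431, edgeR adjusted p = 0.0144) and *Top2a* (1.32 ± 0.30, edgeR adjusted p = 0.0249). Both calls ended by DESeq2 and without either viable library, where 0 members were called (7 by DESeq2, and 12 and 6 by edgeR without viable mouse 1 and 2, had an unadjusted p under 0.05). Of the 18 tested mitosis genes 17 were higher in EGFP- cells, with a median of 1.21, and of the 10 replication genes 6 were, with a median of 0.27. *Mki67* (1.36) missed the threshold at an edgeR adjusted p = 0.0621 and was called with the replicate block (adjusted p = 0.0313 in edgeR). Between EGFP+ and viable cells 0.473% of the genes and 0 members were called by edgeR; 1 member, *Uhrf1*, which guides maintenance of DNA methylation, had an unadjusted p under 0.05 (log2 fold change -1.10, edgeR adjusted p = 0.536), and DESeq2 called 0 members. The medians of both lists were -0.15.

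Summed over the list, mitosis genes held 20.2 and 20.7 of each 10000 counts in EGFP- cells, 9.85 and 11.7 in EGFP+ cells and 11.9 and 11.5 in viable cells. The replication genes held 10.8 and 13.7, 8.37 and 10.5, and 10.8 and 13.1 in the same populations; both EGFP+ libraries lay below the others, while EGFP- and viable libraries overlapped. Other genes differed between the sorted populations too: per 10000 counts the mean summed level of 9 T cell genes was 0.083 in EGFP+ cells and 2.65 in EGFP- cells, that of 9 Langerhans cell genes 0.984 and 12.8, that of 9 upper hair follicle genes 7.84 and 51.4, and that of 9 genes of undifferentiated interfollicular epidermis 280 and 170. *Cd3e*, a defining T cell gene, had 1 and 0 counts in the EGFP+ libraries and 4 and 6 in the EGFP- libraries. The part of these cells in the lower mitosis genes was not tested, and fewer dividing cells and less of these RNAs in each cell cannot be told apart in bulk.

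Further genes of both processes were read from lists that hold no member. Of 17 tested replication genes outside the 15, *Dek*, a chromatin protein, rose in EGFP+ against EGFP- cells (log2 fold change 1.31, edgeR adjusted p = 0.0374), beside 2.99% of all genes called higher, and none fell. Of 27 tested mitosis genes outside the 29, 3 fell and none rose: *Stmn1*, which destabilises microtubules (-1.19, adjusted p = 0.0325), the kinetochore gene *Nuf2* (-2.66, adjusted p = 0.0308) and the condensin gene *Ncapd2* (-1.29, adjusted p = 0.0402), all by edgeR, beside 4.06% of all genes called lower. By DESeq2, or by edgeR with only these 2 populations, 0 genes of both lists were called (with an unadjusted p under 0.05, 1 replication and 9 mitosis genes by DESeq2 and 3 and 6 by edgeR). Without viable mouse 1 or EGFP+ mouse 1 no mitosis gene of these was called, and without EGFP+ mouse 2 or EGFP- mouse 1 *Dek* was not.

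Single cells showed which epidermal cells carried these transcripts. Cells were clustered without the members and other cell cycle genes, and clusters were named from marker genes as resembling interfollicular epidermis I (IFE I-like; 282 cells), interfollicular epidermis II (IFE II-like; 162), the lower hair follicle (lower HF-like; 249) and the upper hair follicle (upper HF-like; 118). In the *Troy*-EGFP mice *Krt14* stood at 82.5 transcripts per 10000 in IFE I-like cells and at 7.43 in IFE II-like cells, *Krt10* at 136 in IFE II-like cells, *Postn* at 42.1 in lower HF-like cells and *Krt79*, a keratin of the upper follicle, at 62.9 in upper HF-like cells. Another epidermal cluster of 87 cells came from the traced mice alone, was led by *Sostdc1*, *Aldh3a1* and *Lgals9*, and is called the *Sostdc1* cluster.

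Replication genes stood highest in the *Krt14*-rich IFE I-like cells in most mice. Per 10000 transcripts the 15 genes together held 5.27, 16.4, 7.05 and 9.77 in IFE I-like cells of *Troy*-EGFP mice 1 to 4 (9.63 ± 4.89, SD, n = 4 mice). In those mice the IFE II-like level was 3.36 ± 1.27, the lower HF-like level 3.72 ± 2.00 and the upper HF-like level 6.21 ± 3.57. IFE I-like cells were the highest of the 4 classes in 5 of the 6 mice; the exception was mouse 1, where the upper HF-like class had 2 cells. Without mouse 1 the IFE I-like mean was 11.1 ± 4.82 and the upper HF-like mean 4.90. In both traced mice the IFE I-like level (16.7 and 24.4) lay above the *Sostdc1* cluster (14.52 and 9.05), lower HF-like (4.11 and 6.08), IFE II-like (2.87 and 4.45) and upper HF-like cells (2.70 and 2.35).

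For mitosis genes the classes overlapped in the *Troy*-EGFP mice. The 29 genes held 1.17, 9.13, 3.66 and 6.36 per 10000 transcripts in IFE I-like cells of the *Troy*-EGFP mice (5.08 ± 3.43), beside 3.04 ± 1.62 for the IFE II-like, 2.81 for the lower HF-like and 5.29 for the upper HF-like class, and the ranges of the mice overlapped. IFE I-like cells were the highest of the 4 classes in 4 of 6 mice, the exceptions being mouse 1 (upper HF-like, 7.24 from 2 cells) and mouse 3 (IFE II-like, 4.51). In the traced mice the levels were 17.5 and 11.3 in IFE I-like cells and 1.48 and 1.95 in IFE II-like cells. Without the 9 IFE I-like cells that held many mitosis genes (described further on) the former were 3.15 and 5.57, a drop that leaving out cells picked by these genes brings with it. The *Sostdc1* cluster had 31.5 in traced mouse 1 and 3.31 in traced mouse 2, and without its highest cell the first of these was 12.

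**Figure D2:**
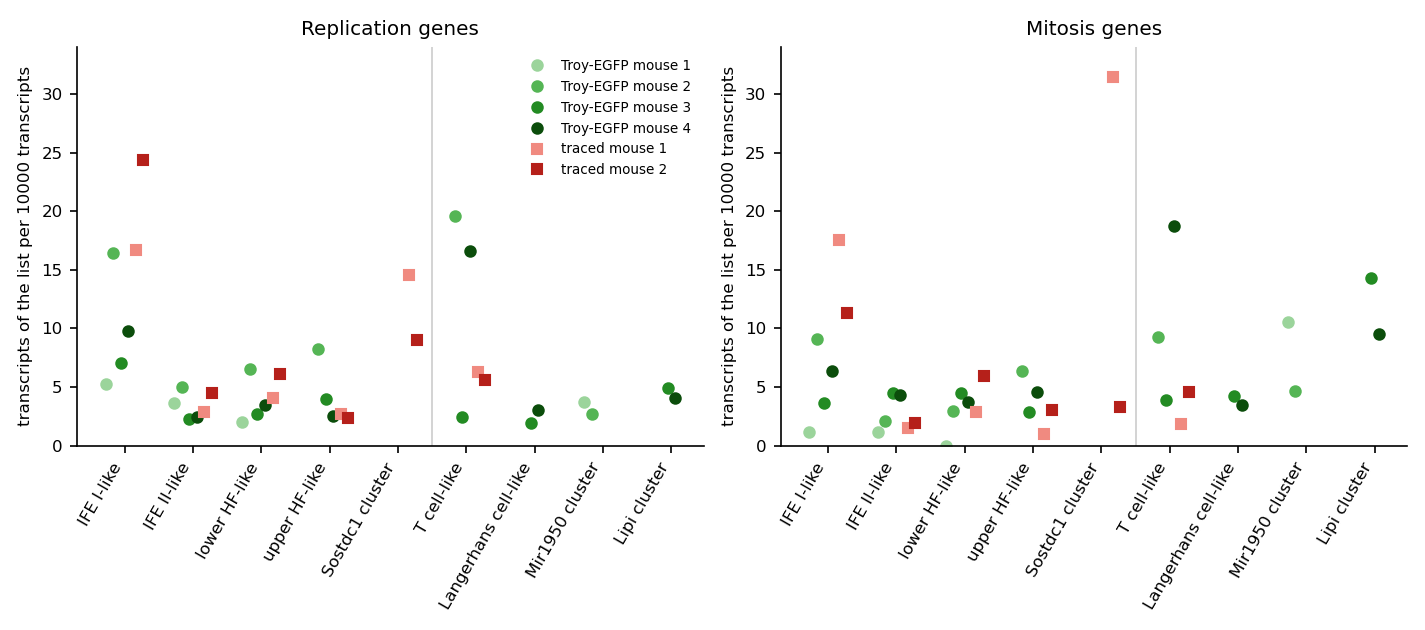
Transcripts of the 15 replication genes (left) and the 29 mitosis genes (right) per 10000 transcripts, by class and mouse, for classes with at least 5 cells of a mouse; circles are *Troy*-EGFP mice, squares traced mice, and a line separates the removed clusters. Of the 4 named epidermal classes shown, IFE I-like cells are highest in replication genes in each mouse, while for mitosis genes the *Troy*-EGFP mice overlap between classes and the *Sostdc1* cluster of traced mouse 1 stands at 31.5.

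The same order was read gene by gene. In the *Troy*-EGFP mice, pooled, 13 of the 15 replication genes had their highest level in IFE I-like cells (not *Tyms* or *Ung*, an enzyme that removes uracil from DNA), and 12 of the 27 mitosis genes with a transcript in these classes did. In the traced mice all 15 replication genes and 26 of the 29 mitosis genes were highest there (not *Aurka*, *Hmmr* or *Kif20b*). The median ratio of the IFE I-like level to the highest of the other 3 classes was 2.24 for replication genes and 0.703 for mitosis genes in *Troy*-EGFP mice, and 4.41 and 2.75 in traced mice. Without mouse 1, 14 of the 15 replication genes (not *Tyms*) and 12 of the 27 mitosis genes were highest in IFE I-like cells, with median ratios of 2.25 and 0.732. Several of these ratios rest on a few transcripts.

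*Pcna* stood at 0.586, 6.77, 1.15 and 2.30 transcripts per 10000 in IFE I-like cells of *Troy*-EGFP mice 1 to 4, and at 1.21, 2.32, 0.685 and 1.08 in their IFE II-like cells, so that it was higher in IFE I-like cells in 3 of 4 mice. The traced mice had 4.60 and 6.62 against 2.08 and 1.41. *Mcm5*, a helicase subunit, showed a sharper split between 3 of the classes. It had 45 transcripts in 24 of 158 IFE I-like cells of the *Troy*-EGFP mice, 1 in the 119 IFE II-like cells and 1 in the 148 lower HF-like cells. All epidermal cells of mice 1 to 4 held 2, 13, 12 and 26, so the 72 upper HF-like cells held the few others. *Uhrf1* had 39 transcripts in 23 of the 158 IFE I-like cells and 2 in the 119 IFE II-like cells.

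Among the other subunits, *Mcm2* had 45 transcripts in IFE I-like against 3 in IFE II-like cells of the *Troy*-EGFP mice, *Mcm3* had 25 against 1, and *Mcm4* 40 against 12. *Mcm6* had 57 against 10 and *Mcm7* 29 against 8. Without mouse 1 the counts were 45 against 3 (*Mcm2*), 25 against 1 (*Mcm3*), 39 against 11 (*Mcm4*), 43 against 1 (*Mcm5*), 48 against 8 (*Mcm6*) and 26 against 7 (*Mcm7*), from 149 and 111 cells. All 6 helicase genes thus had more transcripts in IFE I-like cells with and without it, and in the traced mice the counts were 43 against 3 (*Mcm2*), 28 against 1 (*Mcm3*), 48 against 4 (*Mcm4*), 65 against 3 (*Mcm5*), 126 against 12 (*Mcm6*) and 82 against 8 (*Mcm7*), from 124 and 43 cells. *Rrm1*, the large subunit of ribonucleotide reductase, had 51 against 19 transcripts in the *Troy*-EGFP mice and 91 against 2 in the traced mice, and *Rrm2*, the small subunit, 20 against 5 and 40 against 1. *Tyms* did not follow them, with 24 transcripts in either class of the *Troy*-EGFP mice.

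Transcripts of single mitosis genes were few in the *Troy*-EGFP mice. *Cdk1* had 9 transcripts in 5 of 158 IFE I-like cells, 0 in 119 IFE II-like cells, 1 in 148 lower HF-like cells and 0 in 72 upper HF-like cells. *Ccnb2* was seen in 2 IFE I-like cells and in no cell of the other 3 classes. In that order of classes *Mki67* had 11, 5, 9 and 1 transcripts and *Top2a* 17, 4, 4 and 12. *Birc5* had 12, 4, 7 and 1, and *Cks2*, a small protein that binds *Cdk1*, had 27, 17, 4 and 8. *Hmgb2*, with 118, 82, 53 and 36 transcripts, was common in every class.

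In the traced mice *Mki67* had 90 transcripts in 14 of 124 IFE I-like cells and 0 in 43 IFE II-like cells, *Top2a* 67 against 1, *Cdk1* 44 in 16 cells against 0, and *Ccnb2* 17 in 5 cells against 0. *Hmmr*, a spindle protein that also binds hyaluronan, and *Hjurp*, the chaperone that loads *Cenpa*, differed from these in the *Troy*-EGFP mice: *Hmmr* had 47 transcripts in the IFE I-like class, 51 in the IFE II-like, 46 in lower and 32 in upper HF-like cells, and *Hjurp* 12, 20, 12 and 9. Mouse 1 held none of the *Mki67*, *Top2a*, *Birc5*, *Cdk1*, *Ccnb2*, *Hmmr* and *Hjurp* transcripts of these 4 classes.

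The median IFE I-like cell of the *Troy*-EGFP mice held 3319 transcripts and the median IFE II-like cell 3796, so the class with more replication genes was not the deeper one. Each cell was then thinned to 1000 barcodes. At least 2 different replication genes were left in 26 of the 157 IFE I-like, 1 of the 119 IFE II-like, 14 of the 148 lower and 8 of the 72 upper HF-like cells of these mice. By mouse the shares were 19.5% ± 10.3 (SD, n = 4 mice) for the IFE I-like, 3.13% for the IFE II-like, 10.6% for the lower HF-like and 22.4% for the upper HF-like class, and without mouse 1, which had 2 upper HF-like cells, 14.8%, 0%, 9.40% and 13.2%. Without thinning the IFE I-like share was 37.8%. Langerhans cell-like cells, which are not keratinocytes, had a median of 2493 transcripts, likewise averaged over mice. Of these 38 cells 1, from mouse 2, held at least 2 replication genes after thinning (a mean over mice of 8.33%). The part of free RNA in these shares was not tested. In the traced mice the shares were 31.4% of IFE I-like and 2.00% of IFE II-like cells. For mitosis genes IFE I-like cells were not the highest class of the *Troy*-EGFP mice. Upper HF-like cells had 6.34% and IFE I-like cells 6.10%, beside 3.72% for the IFE II-like and 2.48% for the lower HF-like class. Without mouse 1 the first pair was 8.45% and 8.14%. In the traced mice the mitosis shares were 7.78% of IFE I-like and 0% of IFE II-like cells, and 9.62% in the *Sostdc1* cluster.

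Sums per mouse of at least 10 cells, from *Troy*-EGFP mice 2, 3 and 4, allowed a test of 6 members (*Pcna*, *Rrm1*, *Mcm4*, *Mcm6*, *Hmgb2* and *Hmmr*) among 3231 genes. Of all genes 3.50% were called between IFE I-like and IFE II-like cells, 7.34% between IFE I-like and lower HF-like and 5.01% between IFE I-like and upper HF-like cells, and 0 members were called by edgeR or by DESeq2 in any of the 3. At an unadjusted p under 0.05 there were 2, 0 and 1 members. The 4 replication genes were higher in IFE I-like cells in all 3 comparisons, with median log2 fold changes of 1.70, 1.27 and 1.52 beside 0.03, -0.02 and 0.04 over all genes. The medians changed with the genes tested and the classes: without mouse 4, with 2 genes tested, they were 1.51, 0.68 and 0.73, with classes by the 4 class genes 1.69, 0.64 and 4.43, and against upper HF-like cells 6.40 at a resolution of 1.2 and 6.32 with 10 principal components.

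*Rrm1* was at 112, 99.4 and 117 CPM in the IFE I-like sums of mice 2, 3 and 4, at 0, 57.5 and 26.7 in the IFE II-like, at 46.8, 41.1 and 59.6 in the lower HF-like and at 21.8, 29.3 and 16 in the upper HF-like sums. The IFE I-like sums lay above all others without overlap, which was so for 19.1% of all genes against IFE II-like, 22.3% against the lower and 21.0% against the upper HF-like class. The log2 fold changes were 1.65 ± 0.650 (edgeR adjusted p = 0.243) against IFE II-like and 2.29 ± 0.750 (edgeR adjusted p = 0.115) against upper HF-like cells. *Pcna* was at 747, 130 and 294 CPM in IFE I-like and 268, 81.5 and 139 in IFE II-like sums, a log2 fold change of 1.38 ± 0.682 (edgeR adjusted p = 0.425). Both genes were higher in IFE I-like cells of each of the 3 mice, and the *Pcna* sums of 1 class differed several-fold between mice.

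With the mouse as a replicate block, which pairs the classes of 1 animal, 1 member was called in each comparison: *Pcna* against IFE II-like (adjusted p = 0.0142) and lower HF-like cells (adjusted p = 0.00478), and *Rrm1* against upper HF-like cells (adjusted p = 0.0196), all by edgeR; the block also moved the number of called genes from 113 to 372, from 237 to 490 and from 162 to 471. *Hmgb2* (log2 fold change 0.63, edgeR adjusted p = 0.639) and *Hmmr* (-0.21, adjusted p = 0.986) were not called against IFE II-like cells in either fit. Without mouse 2, 2 of 7 tested members were called in each of the 3 comparisons, with 437, 506 and 451 of 4253 genes. The difference in these folds between traced and *Troy*-EGFP mice was tested by edgeR's interaction test. It was called for 0 of 15 tested members in each comparison, beside 0.0211%, 0% and 0.127% of 4731 genes. At an unadjusted p under 0.05 there were 2, 0 and 1 members, beside 98, 143 and 292 of all genes.

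Of the further genes, *Dut*, which keeps uracil out of DNA, rose in IFE I-like against IFE II-like cells (log2 fold change 5.01, edgeR adjusted p = 0.0212). Against lower HF-like cells *Stmn1* rose (2.11, adjusted p = 0.0022) and *Pole4*, a subunit of DNA polymerase epsilon, fell (-1.87, adjusted p = 0.0363), both by edgeR. Without mouse 3 none of these was called, and without mouse 4 *Stmn1* was not called and *Dut* and *Pole4* were not tested. These were the called genes among 7 tested replication genes and 12 tested mitosis genes outside the set.

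Epidermal cells were also grouped by *Krt14*, *Krt10*, *Postn* and *Krt79* alone, in place of clusters. After thinning, a cell went to the highest of *Krt10*, *Postn* and *Krt79* if it had at least 2 transcripts of it, and otherwise to *Krt14* if it had at least 1. The *Krt14* group (181 cells in *Troy*-EGFP mice) held 6.16, 15.9, 6.88 and 8.53 replication transcripts per 10000 (9.37 ± 4.46, n = 4 mice). *Krt10* cells held 3.61 ± 1.42, *Postn* cells 4.33 ± 1.84 and *Krt79* cells 2.33 ± 0.913, and the *Krt14* group was above each of these in every mouse that had them. In the traced mice the *Krt14* group held 14.7 and 15.7, above *Krt10* (3.10 and 7.63), *Postn* (6.99 and 5.45) and *Krt79* cells (2.80 and 2.59). Mitosis genes gave 4.66 ± 3.45 in the *Krt14* group and 4.63 in *Krt79* cells of *Troy*-EGFP mice, and 51.0 in the *Postn* group of traced mouse 1 against 2.85 in that of traced mouse 2. The former rested on 2 of 24 cells, both from the *Sostdc1* cluster: without the first it was 12.2 and without both 2.87, a step chosen after seeing the data. The few cells with none of the 4 (33 in the traced mice) held 11.7 and 9.63 replication transcripts per 10000 there. The group and the cluster pointed to the same class for 137 of the 181 *Krt14* cells, 107 of the 120 *Krt10* cells, 117 of the 125 *Postn* cells and 35 of the 43 *Krt79* cells of the *Troy*-EGFP mice. The other *Krt14* cells included 26 upper HF-like and 16 lower HF-like cells.

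Cells with many mitosis genes were few. Of the 1109 cells 28 (2.52%) held at least 5 different mitosis genes other than *Hmgb2* and *Hmmr*, a minimum chosen after the cells were seen. These 28 cells held 5.65% of all transcripts, 64.1% of the transcripts of those 27 mitosis genes, by which they had been picked, and 25.7% of the replication transcripts, which had no part in the pick; the 2 shares cannot be set against each other. Around the minimum, 22 cells held 3 of these genes, 8 held 4 and 5 held 5. The 28 cells were also deep, with a median of 6002 transcripts against 2853 in the others.

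Shares of single genes are given as a description, since the pick raises those of the 27 genes. The 28 cells held 93.3% of the *Ccnb2* transcripts, 90.4% of those of *Ccna2*, 78.0% of those of *Cdk1* and 75.5% of those of *Top2a* and of *Mki67*. Of the genes with no part in the pick they held 28.1% of *Hmgb2* and 9% of *Hmmr* transcripts, and of the replication genes 56.0% of *Rrm2*, 44.6% of *Dtl*, 40.4% of *Rrm1*, 25.0% of *Pcna*, 13.0% of *Mcm2* and 7.5% of *Tyms* transcripts. *Ccnb2* was seen in 12 of the 28 cells and in 3 of the other 1081, and *Pcna* in 22 of the 28 and in 327 of the 1081.

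By class, 15 of the 28 cells were IFE I-like, 5 were in the *Sostdc1* cluster, 3 were lower HF-like, 2 were T cell-like, and 1 each was IFE II-like, in the *Lipi* cluster and in the *Mir1950* cluster. They made up 3.8% of the IFE I-like cells of *Troy*-EGFP mice (6 of 158) and 7.26% of those of traced mice (9 of 124). By mouse the IFE I-like counts were 0 of 9, 2 of 38, 1 of 48 and 3 of 63, and 5 of 70 and 4 of 54. The share was not particular to this class. Of the T cell-like cells they were 4.65% in *Troy*-EGFP mice (2 of 43) and 0 of 28 in traced mice. In *Troy*-EGFP mice the exact binomial intervals of the 2 classes overlapped (1.41% to 8.08% for IFE I-like, 0.568% to 15.8% for T cell-like cells). None of the 28 cells was upper HF-like, 0 of 72 in *Troy*-EGFP mice and 0 of 46 in traced mice. By counting error alone, with cells pooled over mice, these counts allow shares of up to 4.99% and 7.71% (exact binomial). The 6 mice had 0, 3, 4 and 5 (*Troy*-EGFP) and 11 and 5 (traced) such cells, and all 5 of the *Sostdc1* cluster came from traced mouse 1, where they were 5 of 41 cells, against 0 of 46 in traced mouse 2. *Krt14* was found, at any level, in 24 of the 28 and in 741 of all 1109 cells. The other class genes were counted at a higher minimum, which cannot be set against this. At least 10 transcripts were held by 2 cells for *Krt10*, 2 for *Postn* and 0 for *Krt79*.

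The 28 cells differed in their replication genes, from 0 to 14 of the 15, with a median of 8.5; 14 cells held at least 9 of them and 9 held fewer than 5. At one end, a cell of the *Sostdc1* cluster in traced mouse 1 held 28 of the 29 mitosis genes, with 349 transcripts, and 4 replication genes with 8 transcripts, of 13070 in all. At the other, an IFE I-like cell of the same mouse held 14 replication genes with 70 transcripts and 7 mitosis genes, of 11020 transcripts. A T cell-like cell of *Troy*-EGFP mouse 4 held 21 mitosis genes, with 100 mitosis and 86 replication transcripts, so the removed clusters also held cells with both sets. A lower HF-like cell of traced mouse 2 had 50743 transcripts and 1123 of *Krt10*; without it the replication level of that class in that mouse went from 6.08 to 3.42 per 10000 and the mitosis level from 5.93 to 1.81.

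**Figure D3:**
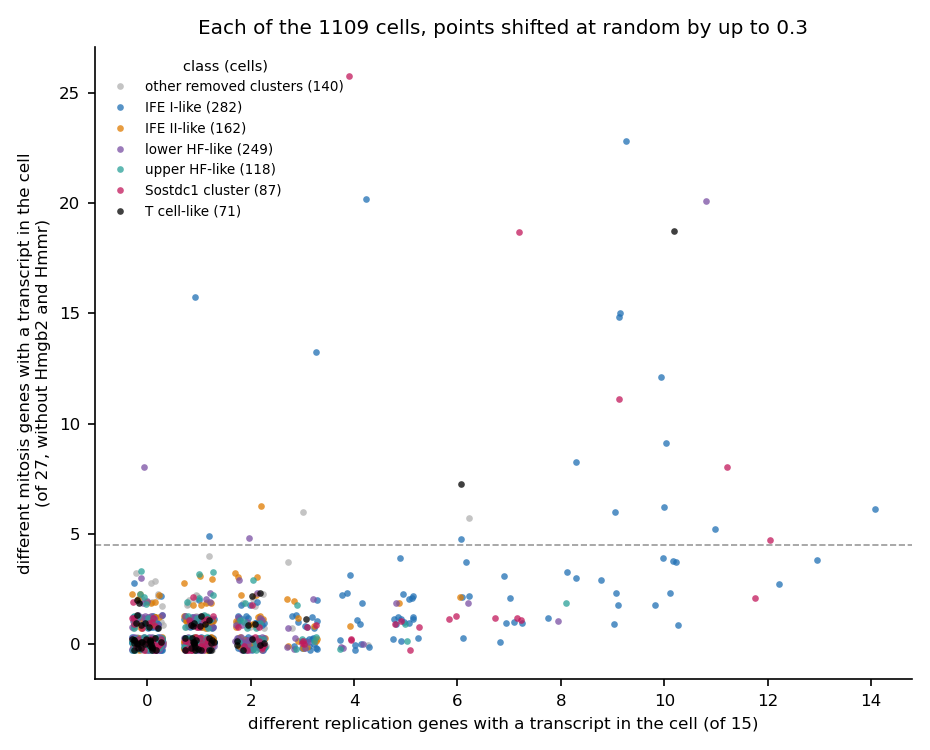
Each point is 1 of the 1109 cells, by the number of different replication genes (x axis, of 15) and of different mitosis genes other than *Hmgb2* and *Hmmr* (y axis, of 27) with a transcript, with small random offsets and colours for class. The 28 cells above the dashed line spread from 0 to 14 replication genes, and 15 of them are IFE I-like.

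Replication genes were also present outside these cells. In the IFE I-like cells that were not among the 28, the replication level was 5.27, 9.34, 6.72 and 7.46 per 10000 in *Troy*-EGFP mice 1 to 4 and 13.6 and 20.02 in the traced mice, which lies above the IFE II-like levels of the same mice. In the 15 IFE I-like cells among the 28 it was 77.9, 25.8 and 44 in mice 2 to 4 and 39.1 and 61.1 in the traced mice. Of all 1109 cells, 438 had no replication transcript and 481 no mitosis transcript.

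A comparison of epidermal cells with and without mitosis genes asked which other genes went with them. With cells thinned to 1000 barcodes, 55 of 897 held at least 2 mitosis genes, 26 of them only through *Hmgb2* or *Hmmr*; 36 held exactly 2 and 197 exactly 1. In sums of 4 mice for the picked and 6 mice for the other cells, 3 of 1103 genes were called by edgeR (0.272%). *Cks2* was 1 of them, but it had helped to choose the cells. *Stmn1* rose: it was at 468, 1210, 3343 and 1827 CPM in the picked sums and between 237 and 396 in the others (log2 fold change 2.5 ± 0.419, adjusted p = 0.0297 in edgeR). *Calml3*, a calmodulin-like gene of epithelia, fell: it was at 0, 93.1, 0 and 0 CPM in the picked sums and between 364 and 1115 in the others (-4.53 ± 0.808, edgeR adjusted p = 0.0353). Of 15 other settings 9 ended the call of *Calml3* (log2 fold changes from -8.78 to -0.64) and 6 that of *Stmn1* (1.22 to 3.00); both were lost without *Troy*-EGFP mouse 4 (adjusted p = 0.101 in edgeR), traced mouse 1 (0.571) or traced mouse 2 (0.285).

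Of the replication genes 1 could be tested in these sums, *Pcna*, and it was not called (log2 fold change 1.31 ± 0.581, edgeR adjusted p = 0.917). At least 2 replication genes were held by 19 of the 55 picked cells (34.5%) and by 10.5% of the others, pooled over mice. By mouse the shares were 50% against 12.7% in *Troy*-EGFP mouse 2, 0% (0 of 9 cells) against 5.88% in mouse 3, 38.9% against 6.52% in mouse 4, and 50% against 11% and 25% against 14.7% in the traced mice, while mouse 1 had no picked cell. The class genes were not called, with log2 fold changes of -0.06 for *Krt14*, -0.07 for *Krt10*, -0.02 for *Krt79* and -1.42 for *Postn* (edgeR adjusted p = 0.744). IFE I-like cells were 41.8% of the picked cells and 30.6% of the others. The median picked cell held 4405 transcripts before thinning and the median other cell 3121.

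*Hmmr* and *Tyms* had the highest shares of their lists outside the epidermal classes, in clusters of other leading genes. Clusters led by *Mir1950* and *Lipi*, with 102 cells and 5.66% of all transcripts, held 31.3% of the *Hmmr* and 29.4% of the *Tyms* transcripts; the next highest were *Kif20b* (24.1%) among mitosis genes and *Dtl* (4.61%) among replication genes. There the levels were 4.24 and 2.12 per 10000, against 0.944 and 0.450 in the epidermal cells of the *Troy*-EGFP mice and 1.78 and 1.57 in the wells left out for having under 1000 transcripts. Of the cells with *Hmmr* 20.7% held at least 3 other members of its own list, beside 6.77% of the cells without it. For *Tyms* the shares were closer, 15.4% beside 12.8%. They were 86.7% beside 11.5% for *Ccnb2*, 83.8% beside 11.4% for *Dtl* and 73.6% beside 8.22% for *Mcm5*. The lists differ in length, so shares of replication genes and of mitosis genes cannot be set against each other. Other genes seen in many cells were also low, with 17.5% for *Hmgb2*, 25.5% for *Pcna* and 29.3% for *Cks2*. Cells without these genes had 3.39%, 3.82% and 9.31%.

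The traced mice had higher levels than the *Troy*-EGFP mice for most members, but no member passed the test. Over all epidermal cells the replication genes held 4.59, 10.3, 3.97 and 4.90 transcripts per 10000 in *Troy*-EGFP mice 1 to 4 and 10.1 and 10.9 in the traced mice, with mouse 2 between the latter. The mitosis genes held 1.49, 5.68, 4.07 and 4.84 against 13.3 and 5.93, without overlap. Few cells carried the traced level. The 15 cells with the most mitosis transcripts held 74.4% of them in the traced mice and 23.7% in the *Troy*-EGFP mice, of 401 and 497 epidermal cells. In edgeR 0.682% of the 8354 tested genes were called, and 0 of 29 tested members, 10 of which had an unadjusted p under 0.05; DESeq2 called 1 member. Of the tested members 13 of 14 replication genes and 13 of 15 mitosis genes were higher in the traced mice, with median log2 fold changes of 0.70 and 1.21 beside -0.01 over all genes. The mitosis median rested on traced mouse 1: without it 8 of 13 tested mitosis genes were higher, with a median of 0.25, and without traced mouse 2 22 of 24 were, with 2.32. In IFE I-like cells alone 11 of 11 replication genes and 5 of 6 mitosis genes were higher, with medians of 0.95 and 1.65, and none was called by edgeR (7 had an unadjusted p under 0.05). Class genes moved with the difference without being called: *Postn* was lower in the traced mice (log2 fold change -1.30, edgeR adjusted p = 0.135) and *Krt79* higher (1.31, edgeR adjusted p = 0.443), both without overlap, and the part of the mix of classes in the result was not tested beyond this. Genotype, tamoxifen and gates differ between these mice and cannot be told apart from tracing. Sex differs in part, since *Troy*-EGFP mice 1 and 2 had no *Xist* either. The paper also shows different sequencing batches for the *Troy*-EGFP cells, and the labels do not say which plates shared a batch.

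*Mki67* was at 0, 0.0946, 0.112 and 0.190 per 10000 in the *Troy*-EGFP mice and at 1.99 and 0.628 in the traced mice (log2 fold change 3.2 ± 0.60, edgeR adjusted p = 0.0564). *Cdk1* was at 0, 0.221, 0.0320 and 0.0119 against 0.722 and 0.468 (3.14, edgeR adjusted p = 0.140), and *Top2a* at 0, 0.410, 0.0801 and 0.226 against 1.16 and 0.575 (1.98, edgeR adjusted p = 0.178). All 3 had no overlap, as for 26.5% of all genes, 4 of the tested replication genes and 6 of the tested mitosis genes. *Ccnb2* had 0, 1, 0 and 1 transcripts in epidermal cells against 34 and 4, and *Ube2c*, which helps to destroy the mitotic cyclins, had 0 in the epidermal cells of all *Troy*-EGFP mice against 37 and 5. Both were too rare to be tested.

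Among the replication genes *Mcm5* was at 0.248, 0.410, 0.192 and 0.309 per 10000 in the *Troy*-EGFP mice and at 0.747 and 0.828 in the traced mice (log2 fold change 1.31, edgeR adjusted p = 0.149), without overlap. *Pcna* was at 0.620, 4.04, 0.913 and 1.35 against 2.90 and 3.48, with mouse 2 above both traced mice. *Mcm6* was at 1.37, 1.26, 0.288 and 0.166 against 1.66 and 1.24. *Mcm7* was at 0.745, 0.820, 0.192 and 0.166 against 0.809 and 1.00. For both, mice 1 and 2 lay near the traced mice and mice 3 and 4 well below. The opposite order was found for *Hmmr*, at 0, 0.442, 0.993 and 1.19 against 0.187 and 0.0267 (-2.92, edgeR adjusted p = 0.184), for *Tyms*, at 0.124, 0.347, 0.448 and 0.522 against 0.162 and 0.0668 (-1.92, edgeR adjusted p = 0.164), and for *Hjurp* (-0.86). Without *Troy*-EGFP mouse 2 edgeR called 11 members, but also 891 genes in all, against 57 in the main fit. Among the members were *Mki67* (log2 fold change 3.04, edgeR adjusted p = 0.0150), *Cdk1* (4.68, edgeR adjusted p = 0.00468) and *Hmmr* (-3.22, edgeR adjusted p = 0.0261). Over the alternative fits their log2 fold changes ran from 2.16 to 3.87, from 2.45 to 4.68 and from -4.82 to -2.06.

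**Figure D4:**
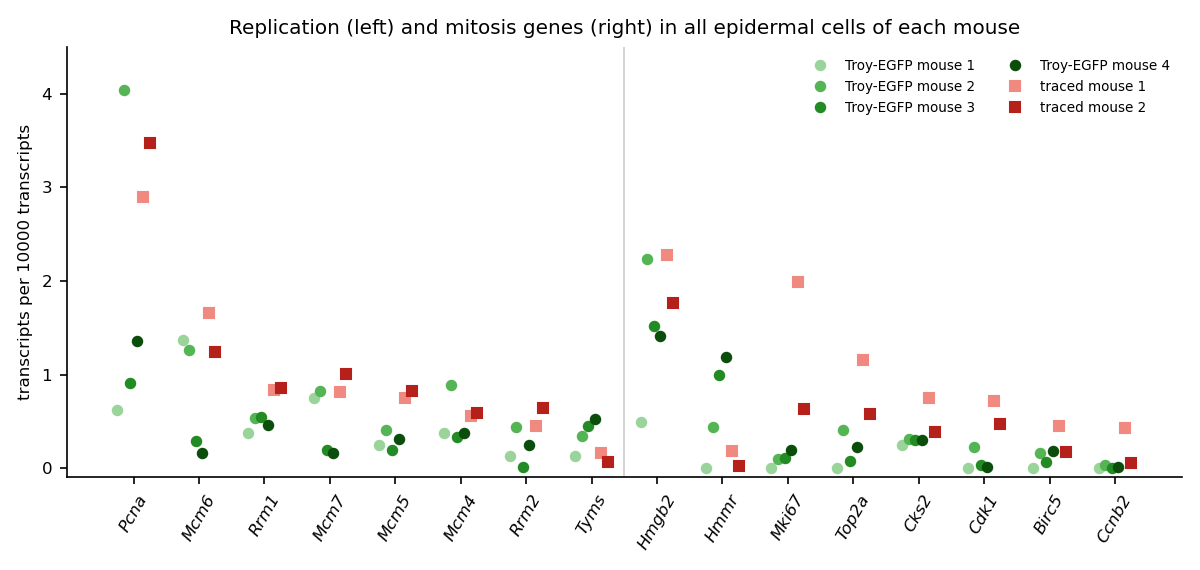
Transcripts per 10000 of 8 replication and 8 mitosis genes in the epidermal cells of each mouse; circles are the 4 *Troy*-EGFP mice and squares the 2 traced mice. The traced squares lie above the circles for *Mki67* (1.99 and 0.628 against at most 0.190), *Cdk1*, *Top2a* and *Mcm5*, while for *Hmmr* and *Tyms* most circles lie above the squares and for *Pcna* mouse 2 (4.04) lies above both.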

How the data were processed

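For the bulk libraries (CEL-Seq2) the authors deposited whole-number read counts per gene, without normalization. For the plates (SORT-seq) the authors deposited estimated transcript counts per gene and well, corrected for molecular barcodes drawn more than once; 100% of 1662281 values gave whole barcodes within 1e-06 for 4096 barcodes. The submitters' processing notes name BWA 0.6.2-r126 and mm10. The members and lists were chosen with earlier results of these data known.

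Bulk counts and transcript sums per mouse and class (at least 10 cells, rounded) were tested in R 4.3.3 by edgeR 4.0.16 (TMM scaling, genes kept by filterByExpr, quasi-likelihood tests, Benjamini-Hochberg adjusted p at 0.05; all populations or classes of an experiment in 1 fit). DESeq2 1.42.0 was an alternative. Counts and medians over tested members are descriptions. Save for the interaction, counts at an unadjusted p stand without the share over all genes and are no result about the members. Values per 10000 are shares of the transcripts of a mouse and class. Cells with at least 1000 transcripts, without spike-ins and mitochondrial genes, were clustered with Seurat 5.3.0 (sctransform 0.4.2) after leaving out cell cycle genes. No doublet caller was run, and wells are numbered alike on each plate, so shared barcodes could not be counted. Intervals cover counting error only.

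The populations and classes with the same replicate number were sorted from 1 animal and are paired by it. Their deviations from the means of the groups had correlations of 0.131, 0.103 and 0.0785 between bulk populations. Between classes the lowest correlations were higher. For IFE I-like cells they were 0.469 with the IFE II-like, 0.447 with the lower HF-like and 0.395 with the upper HF-like class. The main class tests left this pairing out, and the fits with the block took it in. Replicates differed beyond sampling noise (chi-square per degree of freedom 1.69 to 5.99). On simulated data with 200 genes changed by a log2 fold of 2, the test recovered 80.5% in the bulk comparison (4653 genes), 43.5% between IFE I-like and IFE II-like cells (3231), 64.0% in the comparison of cells with mitosis genes (1103) and 45.0% between traced and *Troy*-EGFP mice (8354). Named with values were called members, the 8 members of each list with the most transcripts, *Mki67*, *Top2a*, *Pcna*, *Cdk1*, *Ccnb2*, the 6 Mcm genes, the 4 class genes and called genes of the further lists; other members named (*Cenpe*, *Kif20b*, *Uhrf1*, *Ube2c*, *Ccna2*, *Dtl*, *Ung*) were chosen after their values were seen. Alternatives were DESeq2, no filter, other minimums and clustering settings, the block, the traced mice added and leaving out each mouse. Left out were the sort gates of single wells.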

Additional observations from a re-analysis of the deposited data

Results flagged for a closer look

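Among 32 groups of 4 *Troy*-EGFP mice, 4 had a mouse farther from the others than Dixon's critical value, where chance gives about 1 in 20. Over all epidermal cells, mouse 2 was high in the replication list (10.3 transcripts per 10000), in *Mcm4* (0.883) and in *Cdk1* (0.221), and mouse 1 was low in *Mcm2* (0).

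Values were also read in wells and clusters outside the comparisons. Wells under 1000 transcripts held 6.37 replication and 6.64 mitosis transcripts per 10000. Pooled, T cell-like cells of the *Troy*-EGFP mice held 13.7 replication and 14.5 mitosis transcripts per 10000. In mice 1 to 4 the levels were 0, 19.6, 2.46 and 16.6 for replication and 0, 9.29, 3.93 and 18.7 for mitosis. These came from 1, 6, 11 and 25 cells. In mouse 4, 1 cell alone held 86 replication and 100 mitosis transcripts. *Hmmr* stood at 4.24 and *Tyms* at 2.12 per 10000 in the clusters led by *Mir1950* and *Lipi*. What these values come from was not tested.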

How the results depend on the processing

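Of 616 recomputed log2 fold changes of 46 genes and comparisons, 498 kept their direction and side of the threshold, 79 lost the call, 34 gained one and 5 turned direction. The turned ones were *Top2a* between EGFP+ and viable cells (-0.57 to 0.12 without 1 library, 0.12 without EGFP+ mouse 1), *Hmmr* between IFE I-like and IFE II-like cells at a minimum of 2000 transcripts (0.011) and against lower HF-like cells without 1 mouse (-1.47 to 0.0099, the latter without mouse 3), *Mcm4* against lower HF-like cells without 1 mouse (-0.20 to 0.34, the former without mouse 4) and *Pcna* in the cells with at least 3 mitosis genes (-1.91). The cause was not tested. Members called between EGFP+ and EGFP- cells went from 4 to 1 by DESeq2 (158 genes) or with only these populations in the fit, to 6 with the replicate block (468 genes) and to 0 to 6 without 1 library (0 without EGFP+ mouse 1, 6 without EGFP- mouse 2; 131 to 751 genes). Without the filter 52.8% of the calls were higher, against 42.4%. Between EGFP+ and viable cells they stayed at 0 with the block (49 genes, against 22) and were 0 to 1 without 1 library. Between EGFP- and viable cells they went from 2 to 0 by DESeq2, to 1 without the filter or with only these populations, to 3 with the block (163 genes, against 83) and to 0 to 8 without 1 library (8 without EGFP- mouse 2, 0 without either viable library). Members called in IFE I-like cells went from 0 against the IFE II-like, the lower HF-like and the upper HF-like class to 1 each with the block, to 5, 4 and 5 with the traced mice added, to 3 and 1 (the first pair) without the filter, to 3 and 1 with 10 principal components, to 1 against lower HF-like cells at a resolution of 1.2, and to 0 to 2 without 1 mouse (2 each without mouse 2). In the cells with mitosis genes no member outside the pick was called; the genes called went from 3 to 6 by DESeq2, 42 without the filter, 18 with the block, 0 to 6 without 1 mouse and 10 with *Hmgb2* and *Hmmr* left out of the pick, an alternative chosen after seeing the data. Between traced and *Troy*-EGFP mice members called went from 0 to 1 by DESeq2 (169 genes), 9 without the filter (472 genes) and 0 to 11 without 1 mouse (11 and 891 genes without *Troy*-EGFP mouse 2). IFE I-like cells with at least 2 replication genes went from 19.5% to 37.8% without thinning and 42.0% at a minimum of 1 gene, and with mitosis genes from 6.10% to 23.1% and 32.2%. Counts of members called in an alternative fit are no result about the members where the count of all genes is not given with them. Precision is limited by 2 to 4 mice a group and few transcripts of most members.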
